A study of Mus musculus with 6 samples.

Results

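Neurexins, neuroligins and leucine-rich repeat transmembrane proteins (LRRTMs) were read in the dorsal hippocampus after knockdown of the long non-coding RNA Snhg11, to compare the presynaptic with the postsynaptic side of the same adhesion complex. The set held 9 of the 55401 genes counted, chosen by name with earlier results of these data known. It took Nrxn2 and Nrxn3 for the presynaptic side, and Nlgn1, Nlgn2, Nlgn3, Lrrtm1, Lrrtm2, Lrrtm3 and Lrrtm4 for the postsynaptic side. All 9 passed the filter on low counts and were among the 19969 genes tested. The bulk RNA came from WT male littermates of the Ts65Dn line, 4 months old. Each received 50 µg of antisense oligonucleotide (ASO) per hemisphere into the dorsal dentate gyrus (DG), and the dorsal part of the hippocampus was taken 3 days later. The 3 Control-ASO mice received a scrambled gapmer, and the 3 Snhg11-ASO mice, labelled Snhg11 KD, a gapmer that directs RNase H to the Snhg11 transcript. Both groups thus share the genotype, the surgery and an injected oligonucleotide. The tissue holds all cell types of the dorsal hippocampus, not only the DG cells at the injection site.

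Neurexins sit in the membrane of the presynaptic terminal and reach across the cleft to neuroligins and LRRTMs on the dendrite, which gather receptors through scaffold proteins inside the cell. Each neurexin gene makes a long α form and a short β form from separate promoters, and alternative splicing sets which partner is bound. Neuroligin 1 is known mainly from excitatory synapses, neuroligin 2 from inhibitory ones and neuroligin 3 from both, while the LRRTMs act at excitatory synapses, LRRTM4 among them in DG granule cells.

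Of these genes, Nrxn3 stood furthest below its control level in the fit of all 6 samples, while Lrrtm3 was lower than Nrxn3 with genomic span offsets (-0.51 against -0.30 on the log2 scale) and without Control-ASO replicate 2 (-0.84 against -0.57). Its mean in Snhg11-ASO was 61.7% of that in Control-ASO, with every Snhg11-ASO sample below every Control-ASO sample. Nrxn2 and 4 of the 7 postsynaptic genes had lower means as well, by less, and Nlgn2, Lrrtm1 and Lrrtm2 had means at or above control. Genes annotated inside the introns of Lrrtm4 were counted at as little as 46.2% of control, while the exons of Lrrtm4 itself were at 86.6%. No member passed the threshold across all genes. By the quasi-likelihood test of edgeR, 0 of 19969 genes (0%) had an adjusted p under 0.05, and 1619 (8.11%) had an unadjusted p under 0.05. With DESeq2, 258 genes (1.29%) passed the adjusted threshold, Nrxn3 being the single member among them.

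Every Snhg11-ASO library held less Snhg11 than every Control-ASO library. Snhg11 was counted at 551, 436 and 209 CPM under Control-ASO and at 139, 65.4 and 69.4 CPM under Snhg11-ASO. Values of single samples follow the order of replicates 1, 2 and 3 throughout. CPM, the standard unit of library-scaled expression, relate a count to the reads of its library on all tested genes, with that total scaled by a TMM factor. Between 28951250 and 43997537 read pairs were counted on genes per library. Snhg11-ASO replicate 1 stood apart from the other 2 of its group (Spearman correlation across genes 0.958 and 0.959, against 0.991 between those 2), so some values are also given without it. Genes for which no such value is given can change without it too. Pan-neuronal marker genes summed to 4904 to 5265 CPM in Control-ASO and to 4171 to 5044 CPM in Snhg11-ASO, and none of the 10 was at 0 in any library. In bulk tissue, fewer cells of a type and less RNA per cell cannot be told apart.

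Nrxn3 (ENSMUSG00000066392) lies on the plus strand of chromosome 12 from 88722876 to 90334935 in GRCm38, a span of 1612 kb. It was counted at 278, 328 and 237 CPM under Control-ASO and at 192, 186 and 142 CPM under Snhg11-ASO. The highest Snhg11-ASO sample was below the lowest Control-ASO sample. The mean went from 281 ± 45.6 (SD, n = 3) to 173 ± 27.2 (SD, n = 3) CPM (exact permutation test, two-sided, p = 0.1, below which 3 against 3 samples cannot go). The log2 fold change was -0.70 (SE 0.16, unadjusted p = 0.00375, adjusted p = 0.452, edgeR, adjusted by Benjamini-Hochberg across the 19969 genes). DESeq2 gave an adjusted p of 0.0221, and 0.00169 without Snhg11-ASO replicate 1. These were the only 2 of 20 alternatives in which Nrxn3 passed the adjusted threshold. It did not pass in DESeq2 without Snhg11-ASO replicate 2 or without replicate 3. The gene was lower under all 20 alternative settings, with log2 fold changes from -0.81 to -0.29 and adjusted p from 0.00169 to 0.951. Its fold change was -0.30 (unadjusted p = 0.104) once each sample's trend with genomic span was removed.

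Nrxn2 (ENSMUSG00000033768, plus strand of chromosome 19, 6418731 to 6544169) spans 125 kb and is the shorter of both neurexin genes. It was counted at 116, 101 and 93.3 CPM under Control-ASO and at 80.7, 96.4 and 82.3 CPM under Snhg11-ASO. Snhg11-ASO replicate 2 lay above the lowest control, so the groups overlapped. The log2 fold change was -0.26 (SE 0.12, unadjusted p = 0.0653, adjusted p = 0.638, edgeR). The pair was also read against each other within each library. Nrxn3 was counted at 2.39, 3.25 and 2.54 times Nrxn2 under Control-ASO and at 2.38, 1.93 and 1.73 times under Snhg11-ASO. All Snhg11-ASO ratios were below all Control-ASO ratios, with replicate 1 of each group almost level.

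The start sites of Nrxn3 are shown because the gene's count adds up transcripts that begin at distant places. The sequences are the 250 bases before 3 start sites listed in RefSeq for Nrxn3 (GRCm38.p6), all on the plus strand and written 5′ to 3′, with CpG dinucleotides in capitals.
Nrxn3, chr12:88794254-88794503: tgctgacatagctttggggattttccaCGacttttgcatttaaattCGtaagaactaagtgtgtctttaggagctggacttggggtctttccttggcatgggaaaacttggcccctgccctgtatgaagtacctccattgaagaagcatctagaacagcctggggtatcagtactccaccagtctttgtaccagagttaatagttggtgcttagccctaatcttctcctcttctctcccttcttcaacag
Nrxn3, chr12:88953140-88953389: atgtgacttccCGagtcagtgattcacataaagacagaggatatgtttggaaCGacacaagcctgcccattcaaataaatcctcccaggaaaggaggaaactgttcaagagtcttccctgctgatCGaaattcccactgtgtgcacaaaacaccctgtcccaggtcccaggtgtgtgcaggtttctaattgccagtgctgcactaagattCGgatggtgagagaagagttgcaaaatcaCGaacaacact
Nrxn3, chr12:89812233-89812482: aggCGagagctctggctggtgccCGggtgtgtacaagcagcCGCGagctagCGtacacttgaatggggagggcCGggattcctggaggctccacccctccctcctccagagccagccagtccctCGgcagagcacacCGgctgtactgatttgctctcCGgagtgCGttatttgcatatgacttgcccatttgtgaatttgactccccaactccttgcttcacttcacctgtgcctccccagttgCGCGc
In GENCODE M21, the first precedes a transcript of 1571 codons, the longest of the gene, and the second one of 1100 codons. Transcripts of 1009 and 1391 codons begin upstream of all windows shown, at 88722986 and 88723109. The last precedes the short β forms, with 567 and 430 codons, and lies 1090 kb into the gene. The windows hold 2, 5 and 12 CpG dinucleotides, against a median of 6 over 32851 such windows before mouse gene starts. At least 12 were found in 33.5% of all windows, at least 5 in 55.6% and at least 2 in 81.2%. The gene counts do not separate transcripts by start site. The first window also lies within annotated transcripts that run from 88725009 to 88795115 and from 88725681 to 88794981. The start sites are annotations, and whether any window acts as a promoter was not tested.

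Reads on genes annotated inside Nrxn3 introns gave a further reading along the gene. Gm48692 and Gm48700 carry the annotation TEC, given to transcribed regions that await experimental proof, and lie on the Nrxn3 strand without sharing any of its exons. Reads there can be unspliced Nrxn3 RNA or a transcript of their own, which cannot be told apart. Gm48692, 934 kb into Nrxn3 and thus before the β start site, was counted at 19.8, 24.9 and 18.3 CPM under Control-ASO and at 11.4, 14.0 and 10.2 CPM under Snhg11-ASO. Gm48700, 1347 kb in and thus after that start site, was counted at 7.41, 9.24 and 7.36 CPM and at 4.88, 5.36 and 3.71 CPM. Neither gene's groups overlapped, and both means were close to the share left of Nrxn3 itself, at 56.6% and 58.1% of control. The log2 fold changes were -0.82 (SE 0.18, unadjusted p = 0.00248, adjusted p = 0.428) for Gm48692 and -0.78 (SE 0.20, unadjusted p = 0.00635, adjusted p = 0.486) for Gm48700 (edgeR). In DESeq2 both passed the adjusted threshold, with p of 0.00932 and 0.0421. Their summed CPM was 0.103 ± 0.00525 (SD, n = 3) of Nrxn3 in Control-ASO and 0.0957 ± 0.00996 (SD, n = 3) in Snhg11-ASO, with overlapping groups (two-sided exact permutation test p = 0.5). The microRNA gene Gm23989, 708 kb in, was too low to read, with 10 to 16 counts per library.

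Summed interneuron markers did not overlap between the groups either. The 8 listed genes, Gad1, Gad2, Sst and Vip among them, summed to 659 to 763 CPM in Control-ASO and to 554 to 620 CPM in Snhg11-ASO, with 7 of 8 lower, 3 of them at an unadjusted p under 0.05 (against 4.43% of all genes tested in that direction), and none at 0 in any library. Excitatory neuron markers summed to 1871 to 2465 CPM in Control-ASO and to 2046 to 2345 CPM in Snhg11-ASO. The part of cell composition in the level of Nrxn3 was not tested.

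**Figure D1:**
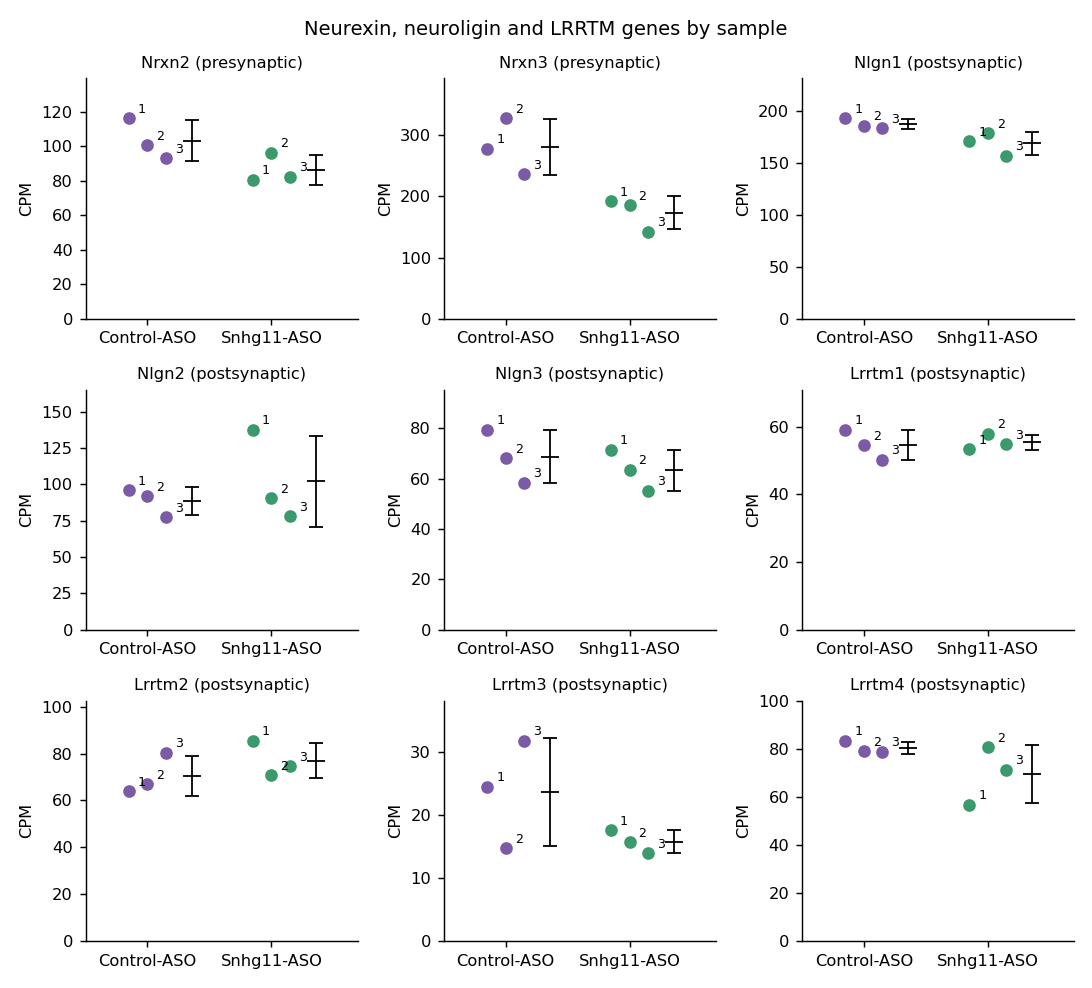
Normalised expression (CPM, each axis from 0) of the 9 genes in each sample. Points are samples with their replicate number, and the bar beside them gives the mean ± SD (n = 3). Nrxn3 separates the groups, from 237 to 328 CPM in Control-ASO and from 142 to 192 CPM in Snhg11-ASO, as Nlgn1 does by a narrower gap, while Snhg11-ASO replicate 1 stands alone for Nlgn2.

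Among the neuroligins, Nlgn1 had slightly lower values, and Nlgn2 and Nlgn3 overlapped between groups. Nlgn1 (ENSMUSG00000063887, minus strand of chromosome 3, 25426215 to 26332460, 906 kb) was counted at 193, 186 and 184 CPM under Control-ASO and at 171, 179 and 157 CPM under Snhg11-ASO. The groups did not overlap, but the highest Snhg11-ASO sample was near the lowest control. The log2 fold change was -0.15 (SE 0.09, unadjusted p = 0.123, adjusted p = 0.691, edgeR), and it turned to 0.16 once the trend with genomic span was removed. Inside Nlgn1, Gm37573, annotated as a sense intronic gene 635 kb from the start, was counted at 11.6, 9.96 and 9.62 CPM in Control-ASO and at 7.40, 9.26 and 7.88 CPM in Snhg11-ASO. The groups again did not overlap (log2 fold change -0.35, SE 0.16, unadjusted p = 0.0642, edgeR).

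Nlgn2 (ENSMUSG00000051790, minus strand of chromosome 11, 69823122 to 69837784) was counted at 96.0, 92.0 and 77.6 CPM under Control-ASO and at 138, 90.4 and 78.3 CPM under Snhg11-ASO. Its higher mean rested on Snhg11-ASO replicate 1. With that sample the log2 fold change was 0.21 (SE 0.21, unadjusted p = 0.367, adjusted p = 0.827, edgeR), and without it -0.07. Nlgn3 (ENSMUSG00000031302, plus strand of chromosome X, 101299168 to 101325963) was counted at 79.4, 68.2 and 58.4 CPM in Control-ASO and at 71.4, 63.4 and 55.2 CPM in Snhg11-ASO. The groups interleaved throughout (log2 fold change -0.12, SE 0.15, unadjusted p = 0.454, adjusted p = 0.855, edgeR). Nlgn3 shares 3823 exonic bases on its own strand with Gm21986, and read pairs that fall on both were left out of its count.

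Of the LRRTM genes, Lrrtm3 and Lrrtm4 had lower means, with overlapping groups, and Lrrtm1 and Lrrtm2 did not. Lrrtm1 (ENSMUSG00000060780, plus strand of chromosome 6, 77242689 to 77257791) was counted at 59.1, 54.4 and 50.2 CPM under Control-ASO and at 53.4, 57.9 and 54.8 CPM under Snhg11-ASO. The log2 fold change was 0.02 (SE 0.10, unadjusted p = 0.840, adjusted p = 0.967, edgeR). Lrrtm2 (ENSMUSG00000071862, minus strand of chromosome 18, 35209003 to 35215024) was counted at 63.9, 66.9 and 80.3 CPM and at 85.5, 70.8 and 74.7 CPM. Its groups overlapped too (log2 fold change 0.13, SE 0.12, unadjusted p = 0.326, adjusted p = 0.810, edgeR).

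Lrrtm3 (ENSMUSG00000042846, minus strand of chromosome 10, 63928472 to 64090277, 162 kb) had the lowest counts of the set. It was counted at 24.5, 14.7 and 31.8 CPM under Control-ASO and at 17.6, 15.7 and 14.0 CPM under Snhg11-ASO. Control-ASO replicate 2 fell among the Snhg11-ASO samples, and the other controls were above them all. The log2 fold change was -0.59 (SE 0.27, unadjusted p = 0.0669, adjusted p = 0.641, edgeR). It rested on single controls, at -0.32 (unadjusted p = 0.240) without Control-ASO replicate 3 and -0.84 (unadjusted p = 0.00361) without Control-ASO replicate 2. The 3 libraries with the highest Lrrtm3 were those with the highest choroid plexus signal. The 6 listed choroid plexus markers (Ttr, Kl, Folr1, Otx2, Clic6 and Kcnj13) summed to 1890, 36.2 and 1224 CPM under Control-ASO and to 1294, 124 and 67.8 CPM under Snhg11-ASO, and none was at 0. Among the 3 libraries with little of this signal, Lrrtm3 was at 14.7 CPM in the control and at 15.7 and 14.0 CPM in Snhg11-ASO. The part of this tissue in the level of Lrrtm3 was not tested.

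Lrrtm4 (ENSMUSG00000052581, plus strand of chromosome 6, 80018877 to 80810143, 791 kb) was counted over its exons at 83.5, 79.0 and 78.9 CPM under Control-ASO and at 56.8, 80.8 and 71.4 CPM under Snhg11-ASO. Snhg11-ASO replicate 2 was inside the control range and replicate 1 was far below it. The log2 fold change was -0.21 (SE 0.14, unadjusted p = 0.167, adjusted p = 0.727, edgeR), and -0.080 without Snhg11-ASO replicate 1. Its exons share 1543 bases with Gm4409 on the opposite strand, and the count that ignores strand was 51.0% of the stranded count used here.

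Inside the introns of Lrrtm4, 8 TEC genes on its strand were tested. Reads there can be unspliced Lrrtm4 RNA or transcripts of their own, which cannot be told apart. The 8 need not be independent of each other, so the shares of all genes set beside them are no test. All 8 were lower in Snhg11-ASO with groups that did not overlap, against 7.7% of all genes tested. Of the 8, 7 had an unadjusted p under 0.05, against 4.43% of all genes in that direction. Among the 223 tested genes over 500 kb, which include Lrrtm4, that share was 50.2%. The 8 were looked at because they overlap a member in the annotation, and 0 of 8 passed the adjusted threshold in edgeR. The nearest to the start, Gm44240 at 31.1 kb, was counted at 16.5, 14.1 and 14.1 CPM in Control-ASO and at 13.5, 13.9 and 11.8 CPM in Snhg11-ASO. Its log2 fold change of -0.19 (SE 0.13, unadjusted p = 0.202, edgeR) was near that of the Lrrtm4 exons. Gm44228 at 200 kb and Gm44230 at 251 kb stood at 63.5% and 61.9% of control, with log2 fold changes of -0.66 (SE 0.17, unadjusted p = 0.00680) and -0.69 (SE 0.19, unadjusted p = 0.00932). Gm20371 at 285 kb and Gm44241 at 301 kb stood at 54.6% and 50.3% of control, with log2 fold changes of -0.87 (SE 0.28, unadjusted p = 0.0166) and -0.99 (SE 0.20, unadjusted p = 0.00151).

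Gm44229, 428 kb into Lrrtm4 (chromosome 6, 80445350 to 80447836), was counted at 12.8, 10.8 and 8.52 CPM under Control-ASO and at 5.01, 5.53 and 4.33 CPM under Snhg11-ASO. It stood at 46.2% of control, with a log2 fold change of -1.11 (SE 0.20, unadjusted p = 8.9e-04, adjusted p = 0.308, edgeR), and DESeq2 gave an adjusted p of 3.3e-04. Gm44242 at 497 kb and Gm44231 at 638 kb had log2 fold changes of -1.02 (SE 0.25, unadjusted p = 0.00433) and -1.10 (SE 0.38, unadjusted p = 0.0230), the latter on only 50 to 149 counts per library. In the annotated order, each of the 7 genes from 200 kb onward lay further below control than Gm44240, and the last 3 lay between 46.2% and 49.4% of control.

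The difference along Lrrtm4 was also read as ratios within each library, chosen after the values were seen. These ratios use the same counts as the fold changes above, so their p-values add no independent support. The 7 genes beyond 100 kb summed to 6.61, 5.56 and 4.92 times Gm44240 under Control-ASO and to 3.49, 3.80 and 3.54 times under Snhg11-ASO. No Snhg11-ASO ratio reached the control range, and their mean was 63.4% of the control mean (exact permutation test, two-sided, p = 0.1). All 8 together were counted at 1.50, 1.17 and 1.06 times the Lrrtm4 exons in Control-ASO and at 1.07, 0.826 and 0.749 times in Snhg11-ASO. There the groups overlapped, as Snhg11-ASO replicate 1 was level with the lowest control (exact permutation test p = 0.2). The median log2 fold change of the 8 was -0.89 when Snhg11-ASO replicate 1 was left out. It was -0.62 when Control-ASO replicate 1, the library with the highest CPM for each of the 8, was left out.

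**Figure D2:**
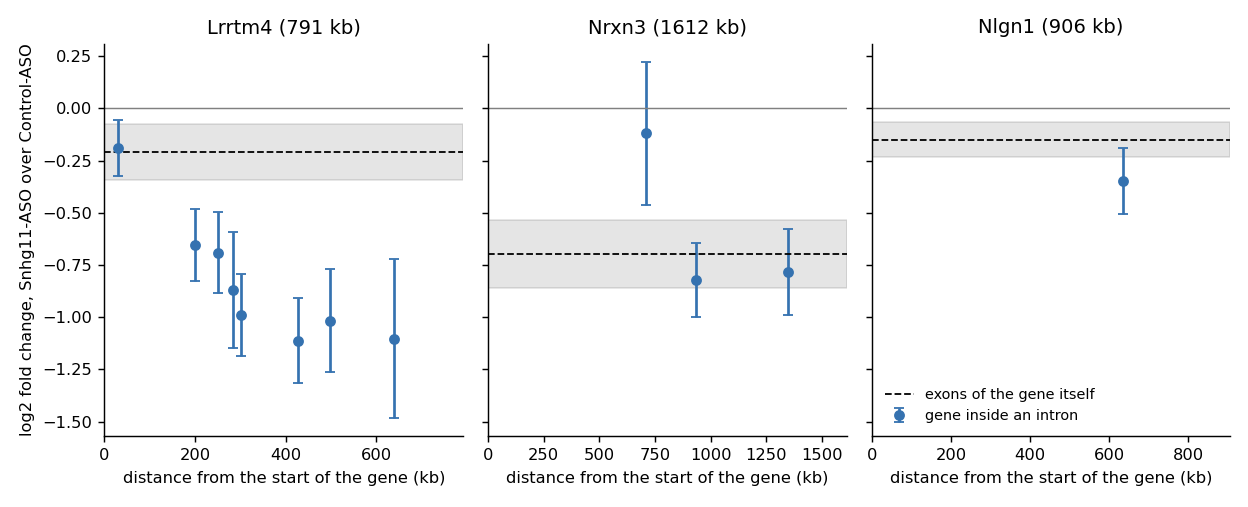
Log2 fold change (Snhg11-ASO over Control-ASO, points with standard error) of genes that lie inside introns of Lrrtm4, Nrxn3 and Nlgn1 on the same strand, against distance from the start of the host gene in kb. The dashed line and grey band give the fold change and standard error of the host's own exons. In Lrrtm4 the points run from -0.19 at 31.1 kb to -1.10 at 638 kb while its exons are at -0.21, and in Nrxn3 both points past the middle of the gene lie at the level of the exons, -0.70.

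Lrrtm1, Lrrtm2 and Lrrtm3 lie inside the α-catenin genes Ctnna2, Ctnna1 and Ctnna3, which link cadherins to actin, and are read from the opposite strand. The hosts and their guests were compared side by side. Ctnna2, which spans 1098 kb, was counted at 102, 119 and 113 CPM in Control-ASO and at 66.4, 91.8 and 83.3 CPM in Snhg11-ASO, groups that did not overlap (log2 fold change -0.47, SE 0.14, unadjusted p = 0.0105, edgeR), against 0.02 for Lrrtm1. Without Snhg11-ASO replicate 1, the fold change of Ctnna2 was -0.35. Ctnna1 was counted at 45.8, 52.9 and 56.5 CPM in Control-ASO and at 76.7, 57.0 and 60.1 CPM in Snhg11-ASO (log2 fold change 0.32, SE 0.14, unadjusted p = 0.0597, and 0.18 without Snhg11-ASO replicate 1), against 0.13 for Lrrtm2. Ctnna3 was low, at 1.18 to 3.54 CPM (log2 fold change -0.37, SE 0.37, unadjusted p = 0.356, and -0.065 without Snhg11-ASO replicate 1), against -0.59 for Lrrtm3.

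The strand of the host was also counted over the exons of these LRRTM genes. Over Lrrtm1 exons, the strand of Ctnna2 was counted at 2.99, 2.91 and 2.64 CPM in Control-ASO and at 1.78, 2.01 and 2.38 CPM in Snhg11-ASO, with every Snhg11-ASO sample lower. Over Lrrtm3 exons, the strand of Ctnna3 was counted at 0.646, 0.981 and 0.980 CPM in Control-ASO and at 0.262, 0.431 and 0.504 CPM in Snhg11-ASO, on 10 to 33 counts per library. Over Lrrtm2 exons, the strand of Ctnna1 was counted at 2.41, 1.87 and 1.48 CPM and at 4.83, 2.75 and 2.36 CPM, where the groups overlapped by a narrow margin. These reads were 4.20% of the strand-resolved counts for Lrrtm1, 3.47% for Lrrtm2 and 3.10% for Lrrtm3, and at most 2.11% for the other members.

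Together, 6 of the 9 genes had a lower and 3 a higher fitted value, and the median log2 fold change was -0.15, against 0.01 over all genes tested. Nrxn3 alone had an unadjusted p under 0.05, which is 11.1% of the members beside the 8.11% of all genes given above. Nrxn3 and Nlgn1 had groups that did not overlap, which is 22.2% beside 15.4% of all genes. Neither share lay far from its background. The median over the presynaptic genes was -0.48 and that over the 7 postsynaptic genes -0.12, on the log2 scale.

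To set the sides against each other, CPM was divided by the kilobases of merged exons of each gene and summed. The presynaptic sum was 0.342, 0.403 and 0.305 of the postsynaptic sum under Control-ASO and 0.236, 0.260 and 0.225 under Snhg11-ASO. Every Snhg11-ASO library was below every Control-ASO library. The presynaptic sum itself ran from 25.5 to 33.3 CPM per kb in Control-ASO and from 17.2 to 21.7 CPM per kb in Snhg11-ASO, and the postsynaptic sum from 82.5 to 89.0 and from 76.6 to 89.4 CPM per kb. Nrxn3 makes up most of the presynaptic sum, so this ratio follows that gene. Once the trend with genomic span was removed, the presynaptic median was -0.26 and the postsynaptic median turned to 0.08.

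By level per kilobase of exon, Nrxn3 was first of the 9 in Control-ASO, at 22.3 ± 3.61 (SD, n = 3) CPM per kb, and behind Lrrtm1 and Nlgn2 in Snhg11-ASO, at 13.7 ± 2.16 (SD, n = 3) CPM per kb. Behind it in Control-ASO came Lrrtm1 at 18.0 CPM per kb, Nlgn2 at 15.3, Nlgn1 at 14.0, Lrrtm4 at 13.1, Lrrtm2 at 11.7, Nrxn2 at 7.49, Nlgn3 at 7.40 and Lrrtm3 at 5.56 CPM per kb. The ranges of neighbours in this order overlapped for 6 of 8 pairs, the exceptions being Nlgn1 with Lrrtm4 and Lrrtm2 with Nrxn2. In Snhg11-ASO, Lrrtm1 led at 18.2 CPM per kb. Divided by the longest transcript in place of merged exons, Nrxn3 again led at 35.4 CPM per kb and Lrrtm3 was again last at 6.07, while Nrxn2 moved up to 15.5 CPM per kb. With that length Nrxn3 was also first in Snhg11-ASO, at 21.9 against 18.7 CPM per kb for Lrrtm1, so its place behind Lrrtm1 and Nlgn2 depends on the length used.

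**Figure D3:**
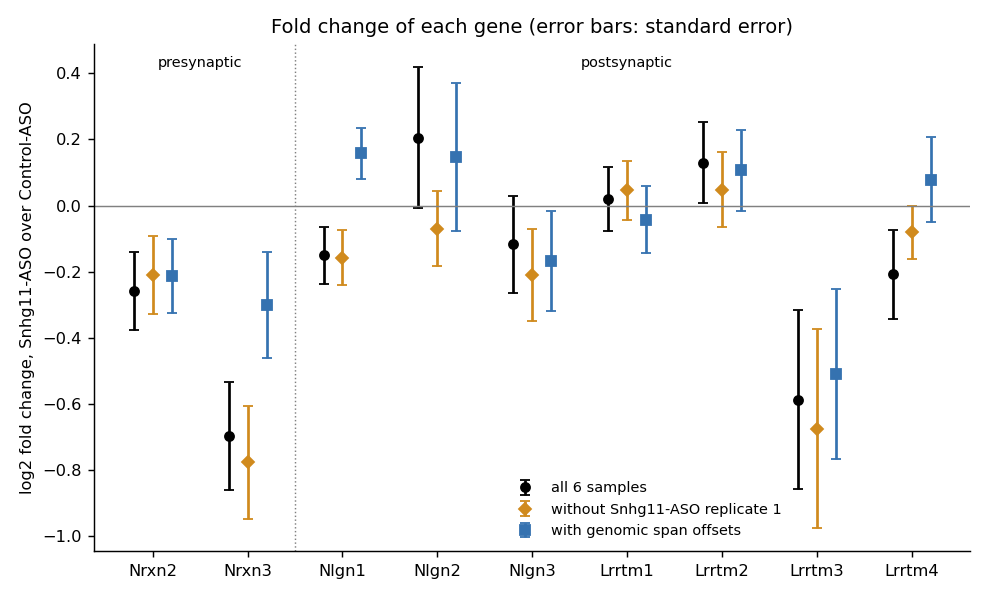
Log2 fold change of each gene (Snhg11-ASO over Control-ASO) with its standard error, from all 6 samples, without Snhg11-ASO replicate 1, and with offsets that remove each sample's trend with genomic span. Nrxn3 is lowest with all samples, at -0.70, and moves to -0.30 with the offsets, while Nlgn1 and Lrrtm4 cross 0 and Nlgn2 drops below 0 without replicate 1.

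The genes that bind, anchor, cut or splice these proteins were read as partner genes, together with the 3 α-catenin genes that hold Lrrtm1, Lrrtm2 and Lrrtm3. They made 49 genes, of which 46 were tested (Nxph4, Fam19a3 and Fam19a4 were too low). Of the 46, 30 had a lower and 16 a higher fitted value, with a median log2 fold change of -0.13. Lower at an unadjusted p under 0.05 were 13 (28.3%, against 4.43% of all genes), Ctnna2 among them, and higher was 1, Sdcbp (against 3.68% of all genes). The lists were chosen with earlier results of these data known, so these shares describe the list and are not a test. None of the 46 passed the adjusted threshold in edgeR, while 3 did in DESeq2, Grid1 and Apba1 among them. Without Snhg11-ASO replicate 1, Cbln1, Fam19a2, Clstn3 and Dlg1 missed an unadjusted p under 0.05 (0.0592, 0.0534, 0.0563 and 0.0508, edgeR). Cbln4, Nxph3 and Igsf21, all lower, then reached that mark (unadjusted p = 0.0478, 0.0444 and 0.0476, edgeR). So did Mdga1, which was higher (unadjusted p = 0.0326, edgeR), and the number stayed at 14. With the replicate number as a block, 11 genes in place of 14 reached it. Nxph1, Fam19a2, Clstn3 and Dlg1 then missed it (unadjusted p = 0.0572, 0.0687, 0.0554 and 0.0531, edgeR), and Mdga1 reached it (unadjusted p = 0.0194).

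Grid1 and Cbln1, which encode a glutamate receptor relative and a secreted protein that ties it to neurexins, had lower values in Snhg11-ASO. Grid1, whose protein GluD1 binds cerebellins that in turn bind neurexins, was counted at 69.5, 63.4 and 51.6 CPM under Control-ASO and at 27.4, 27.0 and 21.1 CPM under Snhg11-ASO. Even the highest Snhg11-ASO sample was well under the lowest control, and the mean stood at 40.9% of control (log2 fold change -1.29, SE 0.16, unadjusted p = 7.7e-05, adjusted p = 0.237, edgeR). Cbln1, a cerebellin, was low and uneven, at 3.50, 1.01 and 5.49 CPM in Control-ASO and at 0.656, 1.20 and 1.19 CPM in Snhg11-ASO. Control-ASO replicate 2 was inside the Snhg11-ASO range (log2 fold change -1.71, SE 0.60, unadjusted p = 0.0241, adjusted p = 0.558). The other cerebellin genes tested, Cbln2 and Cbln4, stood at 78.5% and 44.3% of control (unadjusted p = 0.127 and 0.0659, edgeR). The groups of Cbln2 did not overlap, and those of Cbln4 did. The C1q-like ligands C1ql2 and C1ql3 had log2 fold changes of -0.02 and -0.07.

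Of the other secreted ligands, the neurexophilin gene Nxph1 was at 78.0% and Fam19a2 at 82.0% of control (unadjusted p = 0.0291 and 0.0367, edgeR), which with Cbln1 made 3 of 10 tested. Among the 10 surface partners, the calsyntenin gene Clstn3 and the neuroligin inhibitor Mdga2 were, like Grid1, lower at that mark, at 82.8% and 80.8% of control (unadjusted p = 0.0404 and 0.0177). The related inhibitor Mdga1 went the other way, from 34.2 to 55.3 CPM in Control-ASO and from 55.7 to 72.8 CPM in Snhg11-ASO, just short of the same mark (log2 fold change 0.45, SE 0.19, unadjusted p = 0.0507).

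The scaffolds inside the cell differed gene by gene. Apba1 encodes the presynaptic scaffold MINT1, which joins CASK and neurexin. It was counted at 163, 144 and 139 CPM under Control-ASO and at 85.2, 83.3 and 77.7 CPM under Snhg11-ASO. Both groups were tight and far apart (log2 fold change -0.86, SE 0.09, unadjusted p = 4.1e-05, adjusted p = 0.237, edgeR). Cask, which binds the neurexin tail, had a log2 fold change of 0.11, and Sdcbp, which encodes syntenin, one of 0.28 (unadjusted p = 0.0305). On the postsynaptic side, Dlg1, Dlg2 and Magi1 stood at 77.7%, 77.5% and 77.6% of control (unadjusted p = 0.0421, 0.0115 and 0.0197). Dlg4, which encodes PSD-95, and Gphn, which encodes gephyrin of inhibitory synapses, had log2 fold changes of 0.09 and -0.03. None of the 4 proteases that shed neurexins or neuroligins had an unadjusted p under 0.05. Of the 3 STAR-family splicing regulators of neurexins, Khdrbs2 (SLM1) stood at 63.4% of control (unadjusted p = 0.0313), on counts of 20.5, 16.6 and 23.4 CPM in Control-ASO and 8.63, 14.3 and 15.4 CPM in Snhg11-ASO. Its log2 fold change was -0.66, and -0.44 without Snhg11-ASO replicate 1.

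Genomic span moved with these differences. Of the 223 tested genes over 500 kb, 112 (50.2%) were lower at an unadjusted p under 0.05 and 2 were higher, with a median log2 fold change of -0.37. Nrxn3, Nlgn1 and Lrrtm4 belong to that class, and their values of -0.70, -0.15 and -0.21 lie on both sides of its median. Among the 10776 genes of up to 20 kb, which include Nlgn2, Lrrtm1 and Lrrtm2, 3.34% were lower at that mark, and among the 8183 of 20 to 200 kb, which include Nrxn2, Nlgn3 and Lrrtm3, 3.46% were. Of the 13 partner genes that were lower, 10 span over 200 kb, against 7 of the 33 other partner genes tested. Apba1 at 191 kb, Clstn3 at 34.0 kb and Cbln1 at 4.21 kb were the exceptions. With the trend in span removed, 9 partner genes in place of 14 had an unadjusted p under 0.05. The part of span in the difference of any single gene was not tested.

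**Figure D4:**
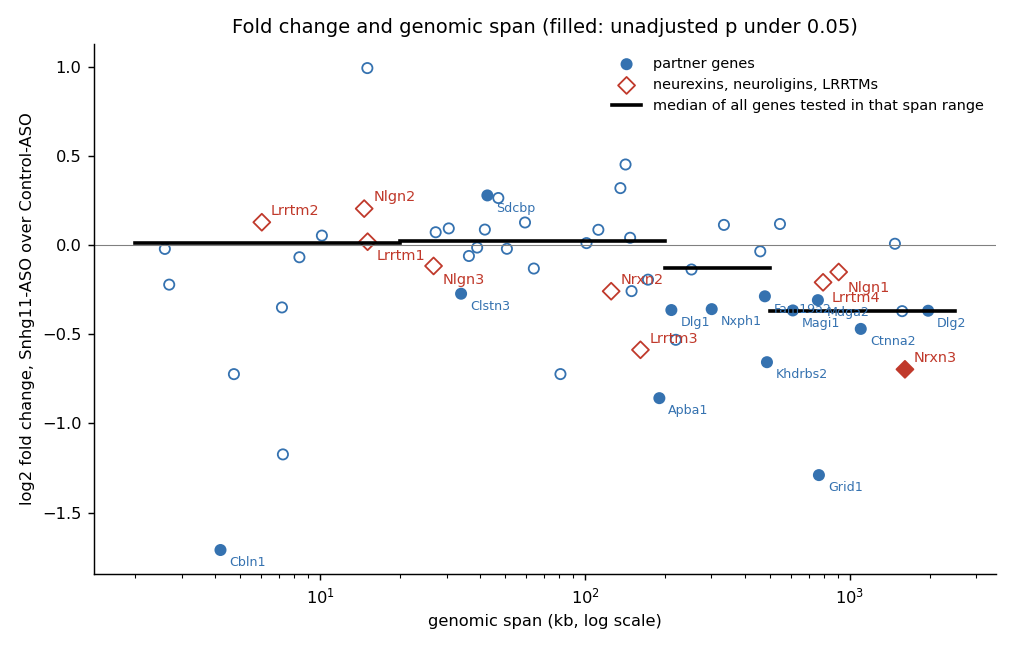
Log2 fold change (Snhg11-ASO over Control-ASO) against genomic span in kb (log axis) for the 9 genes (diamonds) and most partner genes tested (circles), filled where the unadjusted p was under 0.05. Black bars give the median of all tested genes in 4 span ranges, from 0.01 up to 20 kb to -0.37 over 500 kb, where Nrxn3 lies below the bar and Nlgn1 and Lrrtm4 above it.

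For each gene, the protein-coding gene with the most similar profile was found as the smallest root mean square difference in centred log2 CPM over the 6 samples, among 11238 candidates with a mean of at least 5 CPM. For Nrxn3 this was Dpp6, an auxiliary subunit of Kv4 potassium channels, at 250, 287 and 224 CPM in Control-ASO and 174, 176 and 137 CPM in Snhg11-ASO (difference 0.05). For Nlgn1 it was Gabrb1, a GABA-A receptor subunit (0.02), for Lrrtm4 the Argonaute gene Ago3 (0.02), and for Nrxn2 Ttll5 (0.04). Nlgn2 was most like Khsrp (0.03), Nlgn3 like Gm29666 (0.04), Lrrtm1 like Gpi1 (0.03) and Lrrtm2 like Ppme1 (0.03). The match for Lrrtm3 was the loosest, at 0.12, with Igsf21, itself a surface partner of neurexins, at 10.7, 6.09 and 12.9 CPM in Control-ASO and 8.81, 6.27 and 5.47 CPM in Snhg11-ASO.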

How the data were processed

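The authors aligned reads to mm10 with STAR 2.5.2a, and their deposited files hold raw counts of read pairs by gene, 1 file a sample, without normalization. Rsubread is named as the counter in the methods of the study, but the files have the layout that STAR writes. STAR leaves out pairs that map to several places or several genes. Summary lines (43.5% to 51.4% of pairs) were left out. Counts of the reverse strand were used, which the stranded kit predicts and which held 96.2% to 96.8% of strand-resolved counts. GENCODE M21 (GRCm38) matched 55141 of 55401 identifiers. Genes were filtered with filterByExpr (minimum count 10), scaled with TMM and tested with edgeR 4.0.16 (R 4.3.3), by quasi-likelihood, Benjamini-Hochberg adjusted p under 0.05 (biological coefficient of variation 0.266). DESeq2 1.42.0 and 19 other settings were alternatives. Standard errors are fold changes divided by the root of F. Members, lists and rules were chosen with earlier results of these data known. The rule for names was all members, the target, the partner lists, overlapping genes and the most similar gene of each member. The scripts were tested on simulated data. Replicates are separate mice per the paper's methods (N = 3 per group). The study left 1 Snhg11-ASO sample, not named, out of its own test as an outlier, and all 3 were kept here. Deviations of same-numbered samples correlated at 0.297, 0.179 and 0.103. Among differently numbered samples, Control-ASO 2 with Snhg11-ASO 3 gave 0.188, and the rest lay between -0.285 and -0.00619. The labels give no pairing, and these values do not settle it. The fits and tests given are unpaired unless the replicate block is named, which is an alternative. The windows before annotated start sites are from RefSeq. Counts over the lists include genes that are neither named nor plotted.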

Additional observations from a re-analysis of the deposited data

How the results depend on the processing

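Lrrtm1, at 0.02 on the log2 scale, changed sign in 8 of 20 alternatives: -4.3e-04 with counts of both strands, -0.042 with span offsets and -0.039 with these and the replicate block, -0.019 with GC offsets with and without the block, -0.042 to 0.073 with single samples left out, and -0.013 in DESeq2 without Snhg11-ASO replicate 2. With span offsets, Nlgn1 turned to 0.16, Lrrtm4 to 0.079 (0.067 with the replicate block), Dlg2 to 0.061 with and without the block, and Ctnna3 to 0.0090. Nlgn2 ran from -0.069 to 0.36 with single samples left out and was -0.073 in DESeq2 without Snhg11-ASO replicate 1. Treating the replicate numbers as a block for pairing left Nrxn3 at -0.70 and changed no call on a member, and partner genes at an unadjusted p under 0.05 went from 14 to 11. Span offsets gave a presynaptic median of -0.26 (-0.25 with the block) and a postsynaptic one of 0.079 (0.067), with 0 members and 9 partner genes (8 with the block) at an unadjusted p under 0.05. They left 1 member whose groups did not overlap, as did GC offsets. DESeq2 called 258 genes and 1 member, with 2 members at an unadjusted p under 0.05, as with counts of both strands and without the filter. Leaving out single samples gave 0 to 2 genes past the threshold in edgeR, and 347, 275 and 223 in DESeq2 without Snhg11-ASO replicates 1, 2 and 3, with 1 member called without replicate 1. Members at an unadjusted p under 0.05 numbered 1 to 3 (3 without Snhg11-ASO replicate 2, and 2 in DESeq2), and members without overlap 2 to 4 (4 without Control-ASO replicate 3 or Snhg11-ASO replicate 2). Partner genes at that mark numbered 7 to 15 in edgeR (7 without Control-ASO replicate 1 or 3, 9 without Snhg11-ASO replicate 3) and 9 to 17 in DESeq2, nested genes 7 to 9 in edgeR and 8 to 10 in DESeq2, and the postsynaptic median ran from -0.17 to -0.0083 (-0.024 in DESeq2 without Snhg11-ASO replicate 3). The causes were not tested.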
